A study of Mus musculus with 6 samples.

Results

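The cytosolic ribosomal protein genes were taken from the gene table by name: symbols that begin with Rpl or Rps and a digit, the stalk genes Rplp0, Rplp1 and Rplp2, and Rpsa, without names that hold a hyphen and without the Rps6k kinases. Of 34745 genes in the table, 88 had such a name and 80 of these were listed at 1 FPKM or more in 2 or more of the 6 libraries. FPKM divides the fragments of a gene by its length and by the depth of the library. The 80 comprised 43 genes named for the large subunit, 30 named for the small subunit, 3 stalk genes and 3 retrocopies (genes formed by the copying of a messenger RNA back into the genome). The remaining 1, Rps19bp1, encodes a binding partner of Rps19 and no ribosomal protein, and was kept because the name rule takes it. Rps3a1 is described apart, so counts of members are out of 79.

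The mRNA libraries were made from livers of untreated C57BL/6 mice, 1 library for each of 3 tissues in each sex. Normal liver came from wild-type males of 9 months and wild-type females of 15 months. Precancerous liver and liver tumor (hepatocellular carcinoma) came from Hras12V transgenic males of 9 months and Hras12V transgenic females of 15 months. The labels do not give the promoter of the transgene, the number of mice behind a library or whether a tumor and a precancerous library shared a mouse. Sex, age and library depth cannot be told apart, since male libraries held 5996585 to 7347064 counts and female libraries 15047022 to 18434508.

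Ribosomes are built in the nucleolus from ribosomal RNA and ribosomal proteins, and most ribosomal proteins are single structural parts that every ribosome needs. Their mRNAs typically begin with a C followed by a run of pyrimidines, the 5′ terminal oligopyrimidine (TOP) tract, through which mTORC1 signalling and the protein LARP1 control their translation. Mammalian genomes hold many processed pseudogenes of these genes, because their mRNAs are short and abundant and were often copied back into DNA. In liver, ribosome production follows nutrient state and rises when hepatocytes grow or divide.

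Together the 80 genes took 0.563%, 0.614% and 0.734% of all counts in male normal, precancerous and tumor liver. In females they took 0.493%, 0.514% and 0.615%, in the same order. The tumor library had the highest share in each sex and the normal library the lowest. The 95% Wilson interval of the lowest share ran from 0.49% to 0.496%, and covers counting error only. Without Rps3a1 the shares were 0.555%, 0.613% and 0.733% in males and 0.485%, 0.514% and 0.615% in females. Albumin mRNA moved in the same order, from 5.74% to 13.7% of counts in males and from 9.07% to 13.99% in females. Mitochondrially encoded genes went from 4.80% to 1.91% and from 7.31% to 3.79%. Leaving both out of the total, the share of the 80 genes was 0.630%, 0.702% and 0.869% in males and 0.590%, 0.615% and 0.748% in females.

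Listed levels of the 79 genes differed widely. Their median FPKM over the libraries spanned a 448-fold range, with 16.6 in the middle of the list. Rpl4, a large subunit protein at the peptide exit tunnel, was the highest: 301.0, 323 and 395 FPKM in male normal, precancerous and tumor liver and 314, 351 and 419 FPKM in females. Rplp1, an acidic stalk protein that recruits elongation factors, followed with 351, 374 and 448 FPKM in males and 216, 213 and 271 FPKM in females. Rpl8, a protein near the peptidyl transferase centre, stood at 204, 233 and 256 FPKM in males and 249, 272 and 321 FPKM in females. Of these, Rplp1 alone had all male libraries above all female ones.

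At the other end stood genes of both subunits whose products are as obligatory as the others. Rps29 lay at 1.37, 1.19 and 0.96 FPKM in males and at 0.532, 0.547 and 0.446 FPKM in females, which was 6 to 8 counts per library. Rps23, a decoding-centre protein, lay at 1.99, 1.54 and 1.08 FPKM in males and 0.45, 0.615 and 0.574 FPKM in females. Rpl13 followed with 1.19, 1.42 and 1.77 FPKM in males and 0.54, 0.862 and 0.79 FPKM in females. Male libraries were above female ones for all 3 of these genes. Parts of the same ribosome were thus listed at levels more than 100-fold apart. The 8 genes that the threshold left out included Rpl11 (at most 0.449 FPKM), Rpl9 (at most 0.336), Rps13 (at most 0.407), Rps27 (at most 0.647) and Rpl28 (at most 0.94), all core ribosomal proteins, besides the paralogues Rpl3l, Rpl10l and Rpl39l.

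**Figure D1:**
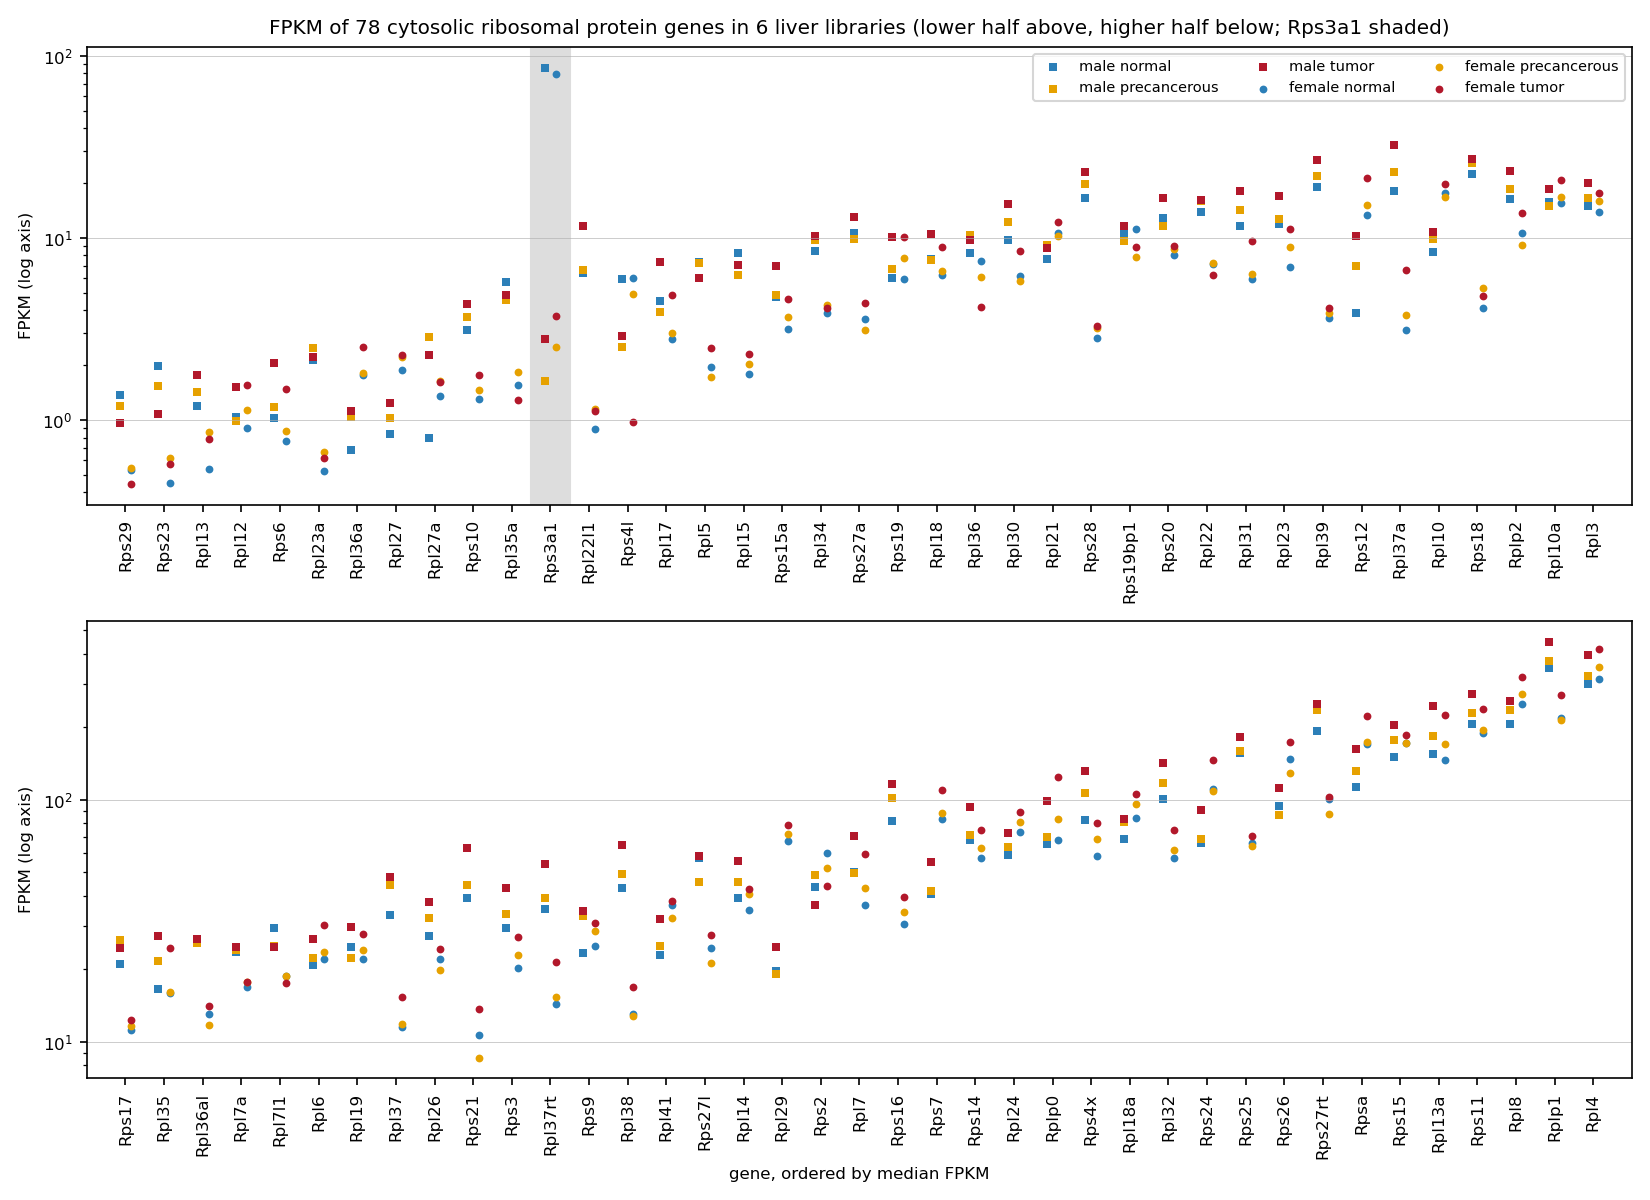
FPKM (log axis) of 78 of the 80 ribosomal protein genes, ordered by their median, with squares for male and circles for female libraries and colours for normal, precancerous and tumor liver. Levels run from under 1 to over 400 FPKM, tumor points are often the highest of a gene, and in the shaded column Rps3a1 is above 79 FPKM in both normal livers and under 4 FPKM in the other libraries.

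Sequence shared with other genes was measured beside these levels. Of the 50-base words in the longest annotated coding sequence, a median of 87.8% per member also occurred in transcripts of other annotated genes, and 24 of 80 members shared every word. Rps19bp1 shared none. Across the 79 genes the median FPKM fell as the shared part grew (Spearman's rho -0.418, a description across genes of the same 6 libraries), and its part in the listed levels was not tested. The 5 lowest members, Rps29, Rps23, Rpl13, Rpl12 and Rps6, all shared 100% of their coding words. Among the highest members, Rpl4 shared 20.3%, Rplp1 60.4% and Rpl8 8.73%. A large shared part did not always go with a low level. Rpl13a shared 97.5% at a median of 177 FPKM, and Rpsa 98.8% at a median of 165 FPKM.

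For 26 of the 80 members the table also listed a copy, 38 copies in all, and for 9 members the copies held more counts than the gene. Rpl5, which binds Mdm2 together with Rpl11, had 1288 counts over the 6 libraries, and its processed copy Gm15500 on chromosome 7 (114705217 to 114706235) had 14704. Rpl12, a protein at the stalk base, had 616 counts against 7215 for Gm10275 on chromosome 10. Rpl23a and Rpl27 had 108 and 257 counts against 3828 for Rpl23a-ps3 and 3684 for Rpl27-ps3. Counts listed under the copies of Rpl11, a gene below the threshold with 104 counts, were 5060 for Gm10036 alone. Rps27 stood at or under 0.647 FPKM while the retrogene Rps27rt, all of whose coding words occur in other genes, stood at 192, 234 and 249 FPKM in males and 100.6, 86.9 and 103 FPKM in females. The sources used here do not say how reads with several matches were assigned.

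**Figure D2:**
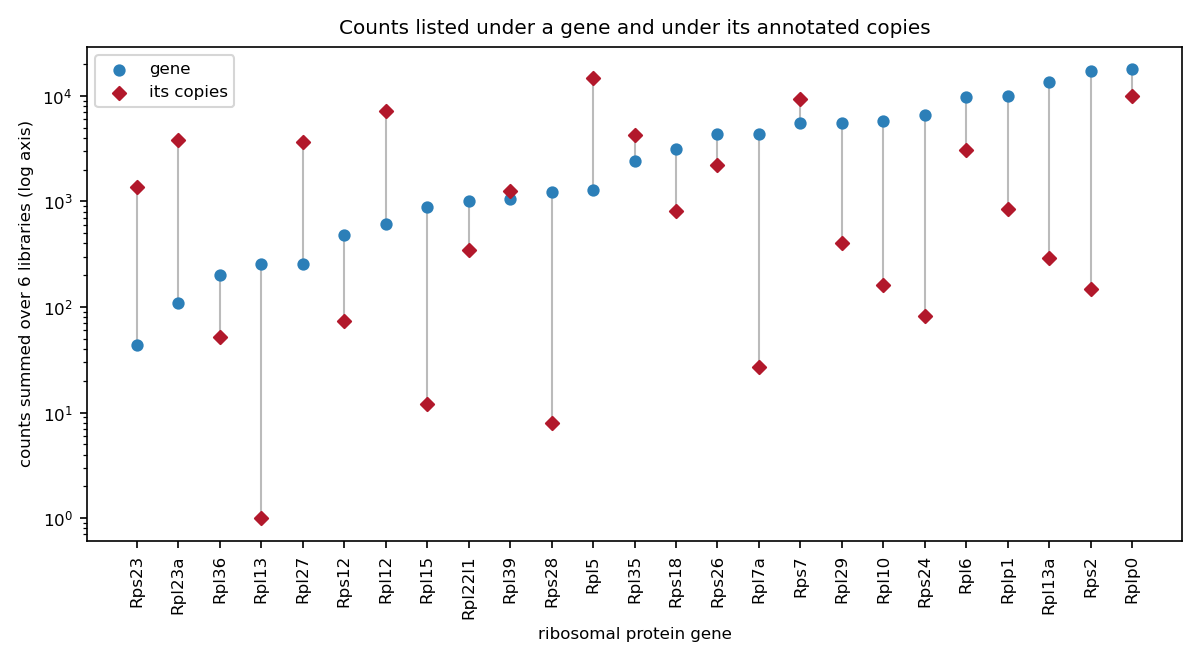
Counts summed over the 6 libraries (log axis) for 25 of the 26 members with a listed copy (circles) and for their copies (diamonds), joined by a line for each gene. The diamond lies above the circle for 8 of these genes, among them Rpl5 (14704 against 1288) and Rpl12 (7215 against 616), and far below it for Rps2 and Rpl7a.

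The copies could also differ between the sexes. Gm5148, a copy of Rps23, had 348, 431 and 563 counts in the shallower male libraries and 10, 0 and 1 counts in the females. Rps23 itself had 6 to 9 counts in every library.

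Between tumor and normal liver of the same sex, ribosomal protein genes were shifted upward. A gene was called when edgeR's quasi-likelihood test gave a Benjamini-Hochberg adjusted p under 0.05 in a model of tissue and sex over all 6 libraries. By this test 19 of 79 members rose (24.1%) and 0 fell, where 17.3% of all 11435 tested genes rose and 16.1% fell. The unadjusted p was under 0.05 for 38 members (48.1%), near the 45.6% of all tested genes. The median log2 fold change was 0.33 over the members and 0.00 over all tested genes, and 70 members lay above 0. Within each sex 71 of 79 members were higher in tumor, with a median difference of log2(FPKM + 1) of 0.39 in males and 0.28 in females. In both sexes together 68 members (86.1%) were higher, against 40.8% of all tested genes, and 5 (6.33%) were lower, against 34.8%. In these bulk libraries, more cells rich in ribosomes and more of these mRNAs per cell cannot be told apart. The number that rose was 1 to 6 when any 1 library was left out, 9 without the FPKM filter and 0 without the sex term.

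The shift was small and of similar size in each part of the ribosome. The median log2 fold change was 0.33 over 43 large subunit genes, of which 10 rose, and 0.34 over 29 small subunit genes, of which 7 rose. Of 3 stalk genes 1 rose, with a median of 0.41. Of the 61 members with at least 100 counts in every library 16 rose (median 0.32), and of the 18 others 3 rose (median 0.48).

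**Figure D3:**
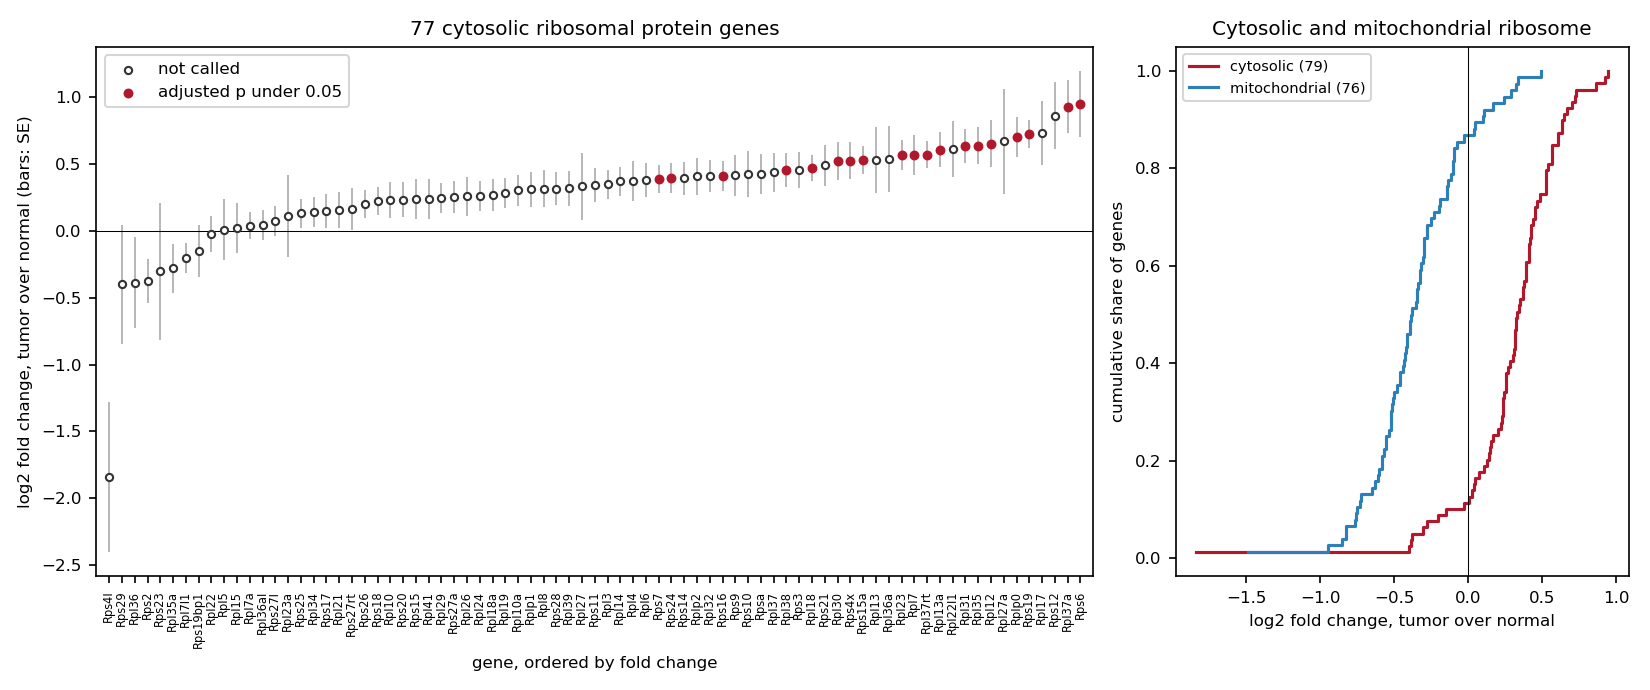
Left, log2 fold change of tumor over normal liver with its SE for 77 of the 79 ribosomal protein genes, ordered by size; filled points are the 19 that rose. Right, cumulative share of the 79 cytosolic and 76 mitochondrial ribosomal protein genes by the same log2 fold change; the cytosolic curve lies to the right of the mitochondrial one, with medians of 0.33 and -0.38.

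Rps19, a small subunit protein mutated in Diamond-Blackfan anaemia, rose with the smallest adjusted p. Its level was 6.04, 6.71 and 10.1 FPKM in male normal, precancerous and tumor liver and 5.97, 7.73 and 10.1 FPKM in females. Both tumors were above all other libraries. The log2 fold change of tumor over normal was 0.72 (SE 0.10, adjusted p = 0.00709 by edgeR's quasi-likelihood test).

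Rpl13a, a large subunit protein also known from the GAIT translation inhibitor complex, stood at 155, 183 and 243 FPKM in males and 145, 170 and 224 FPKM in females. Both sexes followed the order normal, precancerous, tumor, with males slightly above females in each tissue. It rose by 0.61 on the log2 scale (SE 0.13, adjusted p = 0.0241). Rplp0, the stalk base protein that is often used as a reference gene, rose by 0.70 (SE 0.15, adjusted p = 0.0229) with 65.3, 70.4 and 98.7 FPKM in males and 67.9, 83.1 and 124 FPKM in females. Its copy Gm8730 had 113 FPKM in male normal and 186 FPKM in male tumor liver, and 94.9 and 168 FPKM in females.

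Rpl37a, a zinc-binding large subunit protein, had the highest log2 fold change after Rps6. It lay at 17.99, 23.1 and 32.2 FPKM in males and 3.10, 3.76 and 6.69 FPKM in females. Males and females did not overlap, and tumor was highest in each. The log2 fold change was 0.93 (SE 0.20, adjusted p = 0.0218), from counts as low as 32. Rps6, the small subunit protein phosphorylated downstream of mTORC1, stood at 1.02, 1.18 and 2.05 FPKM in males (15 and 37 counts in normal and tumor) and at 0.763, 0.868 and 1.48 FPKM in females (33 and 67 counts). It rose by 0.95 (SE 0.25, adjusted p = 0.0385), and every one of its coding words occurs in other genes.

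Rpl37rt, a transcribed retrocopy of Rpl37, rose by 0.57 (SE 0.10, adjusted p = 0.0123). It lay at 35.3, 39.1 and 54.2 FPKM in males and 14.3, 15.4 and 21.4 FPKM in females. Among the other genes that rose were Rpl35 (0.63), Rpl31 (0.63), Rpl7 (0.57) and Rpl23 (0.57), a further binding partner of Mdm2. For Rpl35 and Rpl31, 66.2% and 25.3% of the exonic bases lie under an exon of a gene on the opposite strand, and the sources used here do not say whether counting used the strand. The other 9 members that rose had log2 fold changes from 0.39 (Rps7) to 0.65 (Rpl12).

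Members with lower tumor levels did not pass the test. The retrocopy Rps4l was lowest, at 5.97, 2.51 and 2.91 FPKM in males and 6.05, 4.91 and 0.971 FPKM in females. Its log2 fold change was -1.84 (SE 0.56, adjusted p = 0.0588). Rps2, which lines the entry path of the mRNA, was the best counted gene with a negative value, at 43.6, 48.9 and 36.8 FPKM in males and 60, 52.1 and 44.1 FPKM in females (-0.38, SE 0.16, adjusted p = 0.137). Rps29 had -0.40 (SE 0.44) from 6 to 8 counts, and Rpl35a had 5.73, 4.57 and 4.88 FPKM in males and 1.55, 1.83 and 1.28 FPKM in females.

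**Figure D4:**
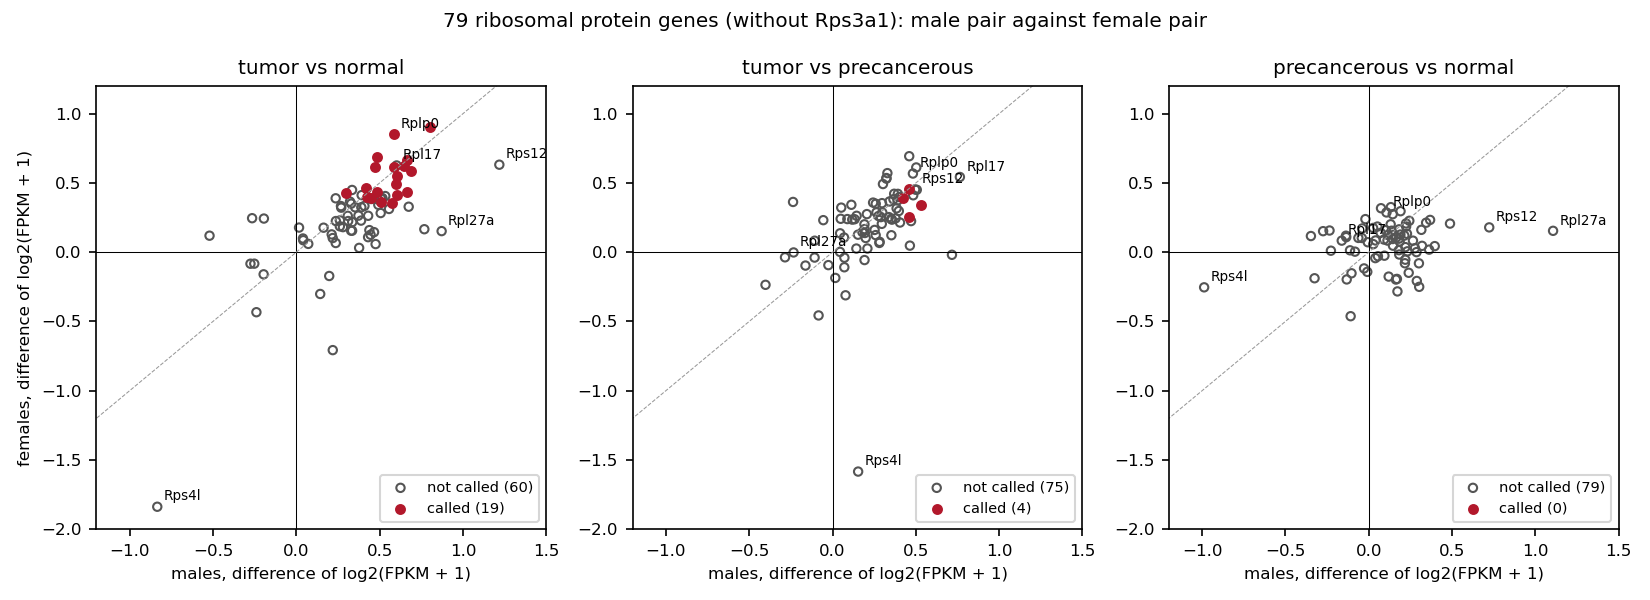
Difference of log2(FPKM + 1) in the male pair (x) and the female pair (y) for 79 ribosomal protein genes in each tissue comparison; filled points were called (19, 4 and 0). Most points of the left and middle panels lie in the upper right, higher in the tumor in both sexes, while Rps4l lies far below.

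Start sites were compared between ribosomal protein genes and other genes. RefSeq promoter windows of the GRCm38.p6 build, from 250 bases before the annotated start to 50 after it, matched 59 of 80 members. A C followed by at least 4 pyrimidines within 5 bases of the start was present in 45.8% of matched members, 23.2% of matched tested genes and 20.7% of all genes with a window. A C followed by at least 7 pyrimidines was present in 30.5%, 5.49% and 4.96%. Short motifs were searched on both strands. In the 250 bases before the start CCGGAA, the core bound by ETS-family factors, occurred in 42.4%, 25.7% and 13.6%, and TATAAA in 6.78%, 8.3% and 14.3%. In the whole window AAGATGGC, the YY1 core, occurred in 8.47%, 5.52% and 3.19%. Genes with more annotated starts have more windows in which a match can occur (up to 3 for a member and 26 for another gene).

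Windows from 30 bases before the start to 20 after it are shown for 6 genes that rose and hold a tract of 8 or more, and then for 2 that rose without one and for Rps3a1. Letters are 5′ to 3′ on the strand of the gene, and capitals mark the pyrimidine tract found at the start.
Rps6 (chr4:86857348-86857397, minus strand): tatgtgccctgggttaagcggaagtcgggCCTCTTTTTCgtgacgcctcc
Rpl13a (chr7:45128726-45128775, minus strand): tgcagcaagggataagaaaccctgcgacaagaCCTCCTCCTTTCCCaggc
Rpl18 (chr7:45718041-45718090, plus strand): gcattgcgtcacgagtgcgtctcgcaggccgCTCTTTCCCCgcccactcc
Rpl35 (chr2:39005112-39005161, minus strand): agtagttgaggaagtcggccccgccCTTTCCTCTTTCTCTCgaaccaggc
Rps15a (chr7:118116128-118116177, minus strand): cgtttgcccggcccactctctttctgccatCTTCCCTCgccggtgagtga
Rpl38 (chr11:114668550-114668599, plus strand): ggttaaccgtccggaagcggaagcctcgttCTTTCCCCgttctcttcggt
Rplp0 (chr5:115559437-115559486, plus strand): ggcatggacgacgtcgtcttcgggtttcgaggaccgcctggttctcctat
Rps16 (chr7:28350659-28350708, plus strand): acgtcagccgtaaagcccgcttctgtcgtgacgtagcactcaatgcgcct
Rps3a1 (chr3:86142649-86142698, minus strand): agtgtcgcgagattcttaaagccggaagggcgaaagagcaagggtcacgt
The tract is a feature of the annotated start used, which need not be the start used in liver. Of 17 genes that rose and had a window, 9 held a tract of 5 or more and 7 one of 8 or more. Of 41 that did not pass, 18 and 11 did. The median log2 fold change of tumor over normal was 0.42 for 18 members with a tract of 8 or more and 0.37 for 31 members with none of 5.

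Between tumor and precancerous liver, which come from transgenic mice of the same sex and age, the shift was smaller. Here 4 of 79 members rose (5.06%) and 0 fell, where 13.8% of all tested genes rose and 12.1% fell, so the called share of members was below that of all genes. The unadjusted p was under 0.05 for 24 members (30.4%), below the 40.4% of all tested genes. The median log2 fold change was 0.22 over the members and 0.03 over all tested genes. Higher values in both sexes were seen for 62 members (78.5%), against 42.9% of all tested genes, and lower values for 7 (8.86%), against 34.5%. This comparison and the one with normal liver share the tumor libraries.

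The 4 genes were Rps19 (log2 fold change 0.45, SE 0.10, adjusted p = 0.0314), Rpl37rt (0.44, SE 0.10), Rpl18 (0.43, SE 0.10) and Rps15a (0.40, SE 0.11, adjusted p = 0.0478). Rpl18 had 7.63, 7.59 and 10.5 FPKM in normal, precancerous and tumor liver of males and 6.21, 6.58 and 8.95 FPKM in females. Rps15a stood at 4.75, 4.85 and 7.04 FPKM in males and at 3.14, 3.68 and 4.59 FPKM in females. Larger differences from fewer counts did not pass: Rpl17 had 0.76 (SE 0.24, adjusted p = 0.0754) and Rps6 0.75 (SE 0.24, adjusted p = 0.0782). No call of these 4 was kept when either precancerous or either tumor library, or female normal liver, was left out, when the sex term was dropped, when DESeq2 was used or when no filter on FPKM was applied.

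Between precancerous and normal liver, which differ in genotype at the same sex and age, 0 of 79 members rose and 0 fell by edgeR. Of all tested genes 0.105% rose and 0.149% fell. An unadjusted p under 0.05 was found for 2 members (2.53%), Rps18 and Rps19, against 15.8% of all tested genes, and DESeq2 and limma called 0 as well. The median log2 fold change was 0.11 over the members and -0.01 over all tested genes. Higher values in both sexes were seen for 44 members (55.7%), against 31.2% of all tested genes, and lower values for 7 (8.86%), against 32.8%. FPKM increased from normal through precancerous to tumor liver in both sexes for 36 of 79 members and for 1659 of 11435 tested genes.

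By the smaller of both sexes' differences of log2(FPKM + 1), the largest were those of Rps4x, Rpl13a, Rpl37a, Rpl14 and Rps9. The pseudocount of 1 places genes of low FPKM, such as Rpl27a and Rpl13, lower in that order. Rps4x, the X-linked small subunit protein, had 82.4 FPKM in male normal and 107 FPKM in male precancerous liver, and 58.6 and 69.0 FPKM in the female pair. Rps9 had 23.3 and 33.0 FPKM in the male pair and 24.8 and 28.7 FPKM in the female pair (log2 fold change 0.36, SE 0.15, adjusted p = 0.35). Rpl27a had 0.87 (SE 0.39, adjusted p = 0.37), almost all of it from male normal liver at 0.794 FPKM (21 counts) against 2.86 FPKM in male precancerous liver (87 counts).

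Rps3a1 stood apart from every other member. The gene, which encodes a small subunit protein near the exit of the mRNA channel, lies on chromosome 3 from 86137940 to 86142702 on the minus strand. It was listed at 85.9 FPKM in male normal liver and 79.1 FPKM in female normal liver (503 and 1364 counts). In precancerous liver it was at 1.63 FPKM in males and 2.52 FPKM in females (11 and 37 counts), and in tumor at 2.79 and 3.72 FPKM (20 and 67 counts). Wild-type libraries were thus far above all transgenic ones, with no overlap. The log2 fold change was -5.26 for precancerous over normal (SE 0.21, adjusted p = 0.0175) and -4.66 for tumor over normal (SE 0.20, adjusted p = 0.000987). It was the fourth most negative log2 fold change of the 11435 tested genes between precancerous and normal liver. Between tumor and normal liver it ranked 52 from the most negative. The fall from normal to precancerous was not called without the female precancerous library (adjusted p = 0.136) or without the sex term (adjusted p = 0.199), with fold changes of -5.59 and -5.27.

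The neighbours of Rps3a1 did not follow it. Sh3d19, the next expressed gene before it on the chromosome, had 6.13, 6.87 and 7.96 FPKM in male normal, precancerous and tumor liver and 5.15, 7.20 and 8.55 FPKM in females. Lrba, the next expressed gene after it, had 1.94, 1.59 and 2.09 FPKM in males and 1.48, 1.42 and 1.61 FPKM in females. Of the coding words of Rps3a1, 88.3% also occurred in transcripts of 10 other annotated genes, none of which has an entry in the deposited table. A change in its mRNA and a change in which copy its reads were assigned to cannot be told apart in these files.

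Male and female libraries differed at many ribosomal protein genes in both directions. Across tissues 39 of 79 members were called higher in males (49.4%) and 13 lower (16.5%), where 19.1% of all tested genes were higher and 18.2% lower. The unadjusted p was under 0.05 for 56 members (70.9%), against 49.7% of all tested genes. Higher values in males in all 3 tissues were seen for 52 members (65.8%), against 39.7% of all tested genes, and lower values in all 3 for 18 (22.8%), against 28.4%. All 3 male libraries were above all 3 female libraries for 42 members (53.2%), against 22.9% of all tested genes. All 3 female libraries were above the male ones for 13 members (16.5%), against 11.3%. The median log2 fold change was 0.47, with values from -1.88 to 2.85. Without the male or the female precancerous library 23 were called higher, and 3 and 4 lower. The count lower was 7 without male normal and 6 without female normal liver. Within tissues the median difference of log2(FPKM + 1) was 0.46 in normal, 0.40 in precancerous and 0.52 in tumor liver.

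Rps28, one of the shortest small subunit proteins, stood at 16.6, 19.7 and 22.9 FPKM in males and 2.82, 3.19 and 3.27 FPKM in females, tissues in the same order (log2 fold change 2.57, SE 0.10, adjusted p = 0.000525). Rpl22l1, the paralogue of Rpl22, stood at 6.42, 6.69 and 11.6 FPKM in males and 0.887, 1.15 and 1.12 FPKM in females (2.85, SE 0.18). Rpl22 itself lay at 13.9, 15.9 and 16.1 FPKM in males and 7.16, 7.24 and 6.24 FPKM in females. Rpl39 (2.44), Rpl37a (2.36) and Rps18 (2.32) were the others with the largest smallest difference of log2(FPKM + 1) over the tissues. Both listed copies of Rps18 (Gm10260 and Rps18-ps3) had higher FPKM in females in each tissue. The copies of Rpl39 (Rpl39-ps), Rpl22l1 (Gm15421) and Rps28 (Gm10263, at most 3 counts in a library) were higher in males in each tissue.

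Rpl29, whose product was also described as a heparin-binding protein, was the gene most shifted to females, at 19.6, 19.0 and 24.6 FPKM in males and 67.2, 72.2 and 78.7 FPKM in females (-1.88, SE 0.09, adjusted p = 0.000901). Rps12 had 3.85, 7.01 and 10.3 FPKM in males and 13.3, 15.2 and 21.2 FPKM in females (-1.35). Rps7 (-1.12), Rpl10 (-1.005) and Rps24 (-0.79) came next by the smallest difference of log2(FPKM + 1) over the tissues. That order depends on the pseudocount of 1, which shrinks genes of low FPKM: Rpl36a (-1.19) and Rpl27 (-1.13), both under 3 FPKM in every library, had larger fitted log2 fold changes than Rpl10 and Rps24. For each of these the 3 female libraries were above the 3 male libraries. By contrast, listed copies of Rps7 (Gm6472 and Gm9493), Rpl27 (Rpl27-ps3), Rpl29 (Gm10709) and Rps24 (Gm9320) were higher in males in each tissue. Gm9493 had 64.5, 67.7 and 86.5 FPKM in males and 49.0, 58.5 and 70.0 FPKM in females. Rpl27-ps3 had 108, 115 and 143 FPKM in males and 89.9, 93.7 and 123 FPKM in females. Rpl10-ps3, Rps12-ps3 and a further copy of Rpl29, Gm17669 (at most 3 counts in a library), were higher in females. With the copies' counts added, 49 of the 52 calls between the sexes were kept.

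Coding length moved with this difference. The 9 members with fewer than 300 coding bases had a median log2 fold change of 1.78, and 8 of them lay above 0. The exception was Rpl41, the shortest, with -0.53. The 38 members of 300 to 500 bases had a median of 0.60, the 16 of 500 to 700 bases 0.08, the 12 of 700 to 1000 bases 0.28, and the 2 longer ones -0.07. Among other tested genes the medians of the same bins were 0.47 (250 genes), 0.05, 0.02, -0.05 and -0.08. Over the 77 members with a coding annotation, Spearman's rho was -0.425 with coding length. With the length of the whole mRNA it was weaker, at -0.227. Over 10305 other tested genes rho was -0.103 with coding length and 0.0547 with mRNA length. The part of fragment length, depth or library making in this difference was not tested. No fall with coding length was seen among the members between tumor and normal liver. Their medians in the 5 bins were 0.32, 0.26, 0.38, 0.40 and 0.36 (Spearman's rho with coding length 0.121). The medians of other tested genes there were -0.15, -0.06, -0.05, -0.05 and 0.04, lowest for the shortest and highest for the longest (rho 0.102). Both rho were positive and of similar size.

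**Figure D5:**
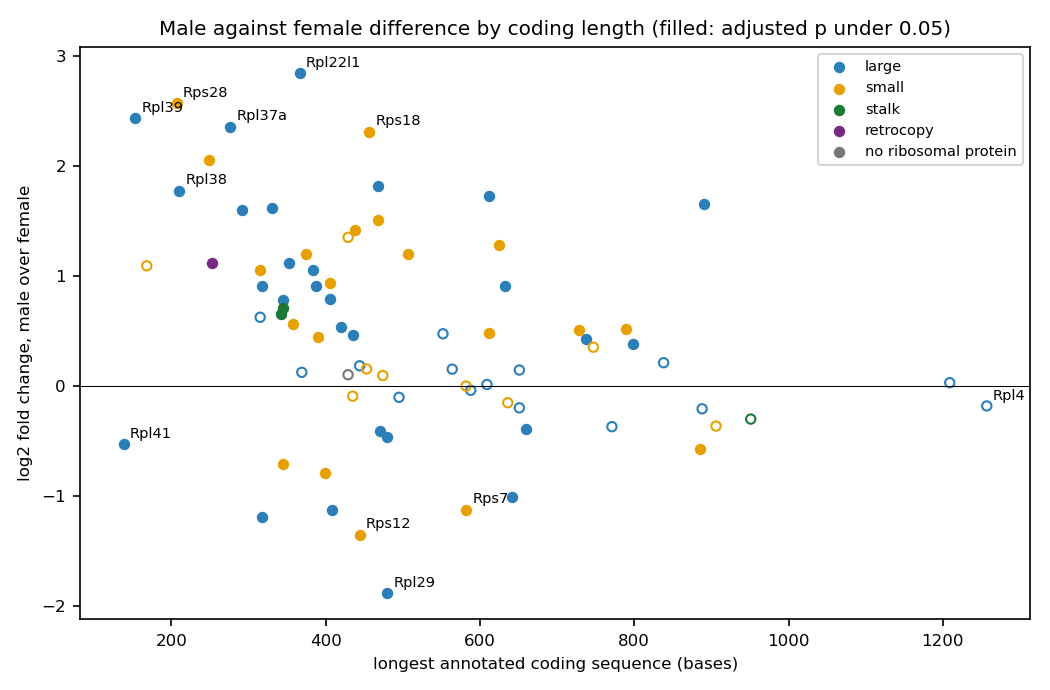
Log2 fold change of male over female libraries against the length of the longest annotated coding sequence, for 77 ribosomal protein genes with a coding annotation, coloured by part of the ribosome and filled where called. Points under 300 bases lie mostly near or above 1, with Rpl41 at -0.53 as the exception.

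The stalk genes and paralogues did not move as one. Rplp1 and Rplp2 were higher in males (0.65, SE 0.11 and 0.71, SE 0.11), whereas Rplp0 was not called (-0.30, SE 0.12, adjusted p = 0.112). Rplp2, a partner of Rplp1 in the stalk, had 16.3, 18.5 and 23.4 FPKM in males and 10.6, 9.16 and 13.7 FPKM in females, with a log2 fold change of tumor over normal of 0.41 (SE 0.14, adjusted p = 0.0764). Rpsa, which also serves as the laminin receptor, was lower in males, at 113, 131 and 162 FPKM against 169, 173 and 222 FPKM (-0.57, SE 0.12, adjusted p = 0.0229). Rps27a, a fusion of ubiquitin and a small subunit protein, was higher in males (1.51, SE 0.10), at 10.7, 9.87 and 13.0 FPKM against 3.59, 3.13 and 4.38 FPKM.

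Among paralogues, Rps27l, a p53-responsive relative of Rps27, had 57.5, 45.7 and 58.2 FPKM in males and 24.3, 21.2 and 27.6 FPKM in females. The precancerous library was the lowest of each sex, and no tissue comparison was called. Rpl7l1, a nucleolar relative of Rpl7, had 29.4, 24.9 and 24.5 FPKM in males and 18.6, 18.8 and 17.5 FPKM in females (tumor over normal -0.21, SE 0.11). Rpl36al, which shares all of its coding words with other genes, had 25.7, 25.6 and 26.5 FPKM in males and 13.1, 11.7 and 14.1 FPKM in females. Both paralogues were higher in males. Rps19bp1 had 10.4, 9.62 and 11.6 FPKM in males and 11.2, 7.85 and 8.89 FPKM in females, and no comparison of it was called.

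The mitochondrial ribosome, whose proteins are also encoded in the nucleus, was set beside the cytosolic one. Between tumor and normal liver 24 of its 76 tested protein genes fell (31.6%, against 16.1% of all tested genes) and 1 rose, with a median log2 fold change of -0.38 and 66 genes below 0. Mrpl35 had 5.65, 1.97 and 2.25 FPKM in males and 4.15, 1.62 and 1.40 FPKM in females (-1.49, adjusted p = 0.00293). Between precancerous and normal liver 0 of the 76 passed, the median was -0.24 and 72 lay below 0. Whether the cytosolic and mitochondrial genes differ in their response was not tested.

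Other genes of the translation machinery were counted between tumor and normal liver, where 17.3% of all tested genes rose and 16.1% fell. Of 29 elongation factors and other mRNAs known for TOP tracts 9 rose (31.0%) and 0 fell (median 0.26). Among them were the poly(A)-binding protein gene Pabpc1, at 31.1, 37.1 and 55.4 FPKM in males and 34.0, 44.8 and 69.9 FPKM in females (0.91, adjusted p = 0.0109), and the elongation factor gene Eef1b2 (0.64). Of 28 initiation factors 3 rose and 3 fell (10.7% each), both below the shares of all tested genes, with Eif6, which keeps the large subunit from joining early, at 7.13, 9.48 and 14.4 FPKM in males and 10.99, 11.7 and 21.2 FPKM in females (0.95, adjusted p = 0.0067). Eif4a2, an RNA helicase, fell by 0.86 on the log2 scale (adjusted p = 0.0169).

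Of 26 genes that control TOP mRNAs and mTORC1, 7 rose (26.9%) and 3 fell (11.5%). The mTORC1 inhibitors Sesn2 (1.196) and Ddit4 (1.18) rose, as did Rps6ka1 (1.48), which encodes a kinase of Rps6. Of the translation repressor genes Eif4ebp3 fell (-1.54) and Eif4ebp1 rose (0.75). Of 17 RNA polymerase I and nucleolar genes 2 rose (11.8%), Taf1a (0.66) and Polr1d (0.42), and 0 fell. Of 46 ribosome assembly genes 3 rose and 3 fell (6.5% each), again below those shares, with Nop58, a core protein of box C/D particles, at 0.84, Utp20 at 0.74 and Nop10 at -0.60. Of 13 tested genes of the ribosomal stress and p53 list 8 rose (61.5%), 1 of them the member Rpl23. Phlda3 (4.69), Eda2r (3.25) and Cdkn1a (3.04), 3 targets of p53, had the largest values.

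Marker genes of cell types and cell division were measured beside the tumor comparisons, and their mRNA levels do not separate cell number from level per cell. Between tumor and normal liver, where 17.3% of all tested genes rose and 16.1% fell, 7 of 8 tested cell division genes rose. The summed level of the 14 genes listed was 10.2 and 9.97 FPKM in normal and 26.1 and 32.2 FPKM in tumor liver (male, then female). Of cholangiocyte markers 3 of 4 tested rose, and the sum of all 8 went from 13.9 and 15.5 to 123 and 142 FPKM. Of stellate cell and fibroblast markers 6 of 9 rose and 2 fell, with sums of 73.7 and 151 against 79.3 and 122 FPKM. Of macrophage markers 4 of 8 fell, with sums over all 10 of 194 and 247 against 133 and 187 FPKM. Of hepatocyte markers 1 of 11 rose and 5 fell. Their sum, most of it albumin, was 36025 and 50472 FPKM in normal and 68333 and 66018 FPKM in tumor liver. Of endothelial markers 2 of 8 rose and 3 fell. By edgeR 0 rose and 0 fell of 5 red blood cell, 4 T and NK cell, 2 B and plasma cell and 2 neutrophil markers tested. The summed B and plasma cell markers were 422 FPKM in female normal liver and 14.4 to 51.3 FPKM elsewhere. No marker of these lists was at 0 in every library. Their part in the higher tumor levels of ribosomal protein genes was not tested.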

How the data were processed

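Gene-level values of 6 liver mRNA libraries were used. The authors deposited 1 table with raw counts and FPKM values for each gene and library. Per the labels' protocols, a mirVana kit gave the RNA and a VAHTS stranded kit the mRNA libraries. Per the submitters' processing notes, the tools were TopHat2 2.0.9 and Cuffdiff and the build GRCm38 (mm10), with no roles given. The sources used here do not give how counting treated multiple matches and strand. The members and gene lists were chosen with earlier results of these data known.

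The 11435 genes at 1 FPKM or more in 2 or more libraries were fitted in edgeR 4.0.16 (R 4.3.3) on counts with TMM factors and tested by its quasi-likelihood test, with terms for tissue and sex over all 6 libraries and 2 residual degrees of freedom. A gene was called at a two-sided Benjamini-Hochberg adjusted p under 0.05 over all tested genes. The SE is the log2 fold change divided by the square root of F. With 1 library per group, the sexes stand in for replicates of a tissue, p-values measure the spread between these libraries only, and differences of a tissue effect between the sexes were not tested. Fold changes within a sex are differences of log2(FPKM + 1), and the pseudocount of 1 understates low genes.

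Coding words of 50 bases were compared on both strands with all other GENCODE M21 transcripts. A copy is a pseudogene, or a coding gene with a Gm or -ps name, that holds at least 20% of a member's words and does not overlap it on the genome. The length implied by FPKM was 0.134 to 2.8 times the annotated exonic length, so FPKM compares libraries better than genes. Start and end matched the annotation for 53 of 80 members.

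Alternatives were library totals, RLE factors, TMM without the members, no FPKM filter, DESeq2 1.42.0, limma-trend 3.58.1 on log2(FPKM + 1) or log2(FPKM + 0.1), no sex term and leaving out each library. After the data were seen, adding the counts of copies to their gene was tried as well. The edgeR, limma and DESeq2 fits were tested on simulated data. Named genes are those called in a tissue comparison (up to 10 per direction by the smaller difference of the 2 sexes, or the 5 with the largest such difference where fewer than 5 were called), the 5 per direction with the largest smallest difference between the sexes over 3 tissues, the 3 highest and 3 lowest by median FPKM, stalk genes, Rpsa, Rps6, Rps27a, Rpl5, Rpl11, Rps3a1, paralogues, Rps19bp1 and up to 4 genes of each list. The genes shown for their copies, for 3 of their promoter windows (Rpl38, Rps16, Rps3a1) or for few counts (Rpl27a), and Rpl22 and the neighbours of Rps3a1, were singled out after their values were seen. Values of 2 members are not reported here by name; both stay in the counts and medians.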

Additional observations from a re-analysis of the deposited data

Results flagged for a closer look

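Rps2 was the 1 member whose tissue difference had opposite directions in the sexes beyond the 95% Poisson intervals of its counts in each. Between precancerous and normal liver its log2(FPKM + 1) differed by 0.163 in males and by -0.198 in females. Each value rests on 1 pair of libraries, the intervals cover counting error only, and the difference between the sexes was not tested.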

How the results depend on the processing

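Tumor against precancerous liver depended most on the processing. The 4 members that rose became 10 with library totals alone, 0 without the FPKM filter, 2 with DESeq2, 9 with limma on log2(FPKM + 1), 10 on log2(FPKM + 0.1), 0 without the sex term and 0 to 3 when 1 library was left out. The median of 0.224 became 0.255 with library totals, 0.176 without the filter, 0.252 on log2(FPKM + 0.1), 0.244 with the copies added and 0.192 to 0.244 with a library left out, and 0 to 1 members then fell. In tumor against normal liver the 19 became 9 without the filter, 0 without the sex term and 1 to 6 with a library left out. There 1 member fell without the filter and 1 with DESeq2, and 0 to 1 with a library left out, where the median was 0.29 to 0.395. For precancerous against normal liver the median was 0.101 to 0.172 with a library left out. For males against females the median of 0.469 became 0.56 with library totals, 0.554 on log2(FPKM + 0.1) and 0.409 to 0.501 with a library left out. Then 23 to 33 members were higher in males and 3 to 11 lower. Leaving out a library also removes residual degrees of freedom, and its lone partner is assumed to vary like the other groups. The cause of the other changes was not tested. Of the same 19 genes, 18 were called with the copies added, 12 with DESeq2 and 0 to 6 with a library left out. Of the values for genes named by their role or level, 7 reversed with a library left out. They were Rpl5 without female tumor (-0.293 against precancerous and -0.393 against normal), Rplp2 without female precancerous (0.169), Rps23 without female normal (-0.454) and Rps27rt without male normal liver (-0.17), the last 3 for precancerous against normal, and Rps4l in males against females without male tumor (-0.542) or female tumor (-0.51). The sex term already compares tissues within each sex and age. No paired analysis was possible because, beyond that term, the labels give no replicate number that ties libraries to a mouse. Members with few counts, such as Rps29 at 6 to 8, limit what can be seen.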
